A study of Mus musculus with 5 samples.

Results

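Small nucleolar RNAs (snoRNAs) and their Cajal body relatives were compared between nephron progenitor cells with and without Dis3l2. The members were all genes of the deposited table whose name starts with Snord, Snora or Scarna. There were 149 of them among 53927 genes: 99 C/D box snoRNAs (Snord), 41 H/ACA box snoRNAs (Snora) and 9 Cajal body RNAs (Scarna). Primary nephron progenitor cells, the precursors of the kidney's filtering units, had been grown from C57BL/6J mouse embryos and passaged 1 time in culture. They were either Dis3l2+/+ (WT, 2 libraries) or Dis3l2-/- (KO, 3 libraries). The age of the embryos, and whether each library came from its own embryo or litter, were not given in the sources used here. P-values therefore measure only how these libraries vary, and that variation may be technical in part.

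SnoRNAs work inside protein particles and find their targets by base pairing. C/D box snoRNAs guide ribose methylation of ribosomal RNA, H/ACA snoRNAs guide the conversion of uridine to pseudouridine, and Cajal body RNAs guide both kinds of change on spliceosomal small nuclear RNAs. A few snoRNAs act in the cutting of the ribosomal RNA precursor instead, among them U8 (Snord118), which is needed for maturation of the large subunit RNAs. Most mammalian snoRNAs are freed from the introns of a host gene after splicing, while U8, U13 and a few others have promoters of their own. Dis3l2 is a cytoplasmic exoribonuclease that digests RNA from the 3' end and prefers RNA with an added uridine tail.

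Sequences are shown for the members on which the results turn: Snord118, the member with the highest log2 fold change; Snord17 and Snord15a, the C/D members with the lowest; and Snora73b and Scarna2, the most abundant H/ACA and Cajal body members. Of Scarna2 the last 150 of 414 bases are printed. They are the GENCODE M21 transcripts (build GRCm38), written 5′ to 3′ as DNA letters. In the C/D members and Scarna2 the capitals mark the first TGATGA, the core of the C box, and the last CTGA, the D box. In Snora73b they mark the ACA that stands 3 bases from the end.
Snord118 (chr11:69073427-69073561, plus strand): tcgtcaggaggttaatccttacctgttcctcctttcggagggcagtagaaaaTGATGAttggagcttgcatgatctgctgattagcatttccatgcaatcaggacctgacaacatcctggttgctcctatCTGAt
Snord17 (chr2:144265979-144266216, minus strand): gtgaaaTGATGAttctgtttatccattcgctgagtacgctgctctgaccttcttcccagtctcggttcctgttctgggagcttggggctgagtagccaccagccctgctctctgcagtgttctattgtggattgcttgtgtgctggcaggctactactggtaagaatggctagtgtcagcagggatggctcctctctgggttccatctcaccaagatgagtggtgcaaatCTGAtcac
Snord15a (chr7:99482785-99482932, minus strand): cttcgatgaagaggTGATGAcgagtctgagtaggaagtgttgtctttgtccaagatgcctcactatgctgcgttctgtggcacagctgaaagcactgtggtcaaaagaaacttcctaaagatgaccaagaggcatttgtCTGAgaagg
Snora73b (chr4:132352322-132352526, minus strand): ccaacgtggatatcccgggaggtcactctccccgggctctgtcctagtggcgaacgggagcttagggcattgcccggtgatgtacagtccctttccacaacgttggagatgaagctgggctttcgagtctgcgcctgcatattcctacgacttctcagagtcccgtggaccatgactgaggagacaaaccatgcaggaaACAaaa
Scarna2 (chr3:108554338-108554487, minus strand): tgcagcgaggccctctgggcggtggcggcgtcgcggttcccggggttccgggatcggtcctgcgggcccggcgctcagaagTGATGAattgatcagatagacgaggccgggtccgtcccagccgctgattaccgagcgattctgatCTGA
Only exact matches were marked, and Snord118, Snord17, Snord15a and Scarna2 each held both boxes. The D box of Snord118 ended 1 base before the 3′ end.

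The C/D and H/ACA classes are named for such boxes, so counting the boxes describes the members and is no independent check. The boxes were searched on the RNA strand of every member, TGATGA over its whole length. TGATGA was present in 75 of the 99 C/D members, in 0 of the 41 H/ACA members and in 6 of the 9 Cajal body members. CTGA lay in the last 20 bases of 97, 4 and 5 of them. ACA stood 3 bases from the end in 34 of the 41 H/ACA members, in 0 C/D members and in 2 Cajal body members. For comparison, 4.7% of GENCODE M21 transcripts held TGATGA in their first 135 bases, 9.2% held CTGA in their last 20 bases and 2.5% ended with ACA at that place. The letters of the classes therefore followed their names, and the Cajal body group was mixed.

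The deposited levels are CPM of an effective library size. The 5 libraries held between 19.61 and 49.25 M assigned reads, judged by the size of 1 read among low values. KO replicate 1 was the deepest and KO replicate 3 the shallowest. Dis3l2 stood at 16.04 and 12.2 CPM (WT) against 6.50, 4.93 and 4.70 CPM (KO), without overlap. Which exons the deletion takes is not in the labels. Of 4 genes that mark these progenitors, Six2 (18.6 to 31.9 CPM) and Eya1 (168 to 274 CPM) were present in all 5 libraries. Sall1 measured 81.7 and 37.0 CPM (WT) against 87.99, 49.6 and 47.9 CPM (KO), and Cited1 15.2 and 1.40 CPM (WT) against 17.05, 4.74 and 2.73 CPM (KO), so both were highest in KO replicate 1 and WT replicate 1. The share of mitochondrial ribosomal RNA in the summed values was 38.9% to 40.7% for WT and 31.5% to 32.9% for KO. The share of Rn7sk, an abundant nuclear RNA, was 3.51% to 3.83% for WT and 11.9%, 6.48% and 2.27% for KO replicates 1, 2 and 3. The part of these shifts in the values below was not tested. Fewer cells of a type and less RNA per cell cannot be told apart in such bulk libraries.

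Not every member could be measured. At least 1 read was counted for 73 of the 149 members, and 76 were at 0 in every library. Of the C/D class 45 of 99 had a read, of the H/ACA class 20 of 41 and of the Cajal body class 8 of 9. A member was tested if it reached 0.5 CPM in at least 2 libraries, which left 25 C/D, 13 H/ACA and 6 Cajal body members, 44 in all. A member at 0 could still have a level of up to 3 reads, which is 0.0639 CPM in the deepest library and 0.141 CPM in the shallowest, and this limit covers counting error only.

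Whether a member had reads went with its place in the annotation. Of 66 members that overlap an exon of another gene on the same strand in GENCODE M21, 57 were at 0 in every library (86.4%). Of 61 members with no exon overlap and under 50% of their 50-base windows shared with another place in the transcript set, 2 were at 0 (3.3%), Snora43 and Snora35. Exons of other short RNA genes were not counted as overlap. All windows of Snora43 also lie in another model at its own place. The windows have the length of the reads, and the 19 members in between, without an overlap but with most windows shared, held 17 at 0. All 17 were copies of Snord116, the imprinted cluster of near-identical C/D snoRNAs. The 3 members that overlap an exon on the opposite strand alone (Snord42a, Snord4a and Snora73b) all had reads. The authors' annotation release and their counting of overlapping or repeated reads were not given in the sources used here.

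**Figure D1:**
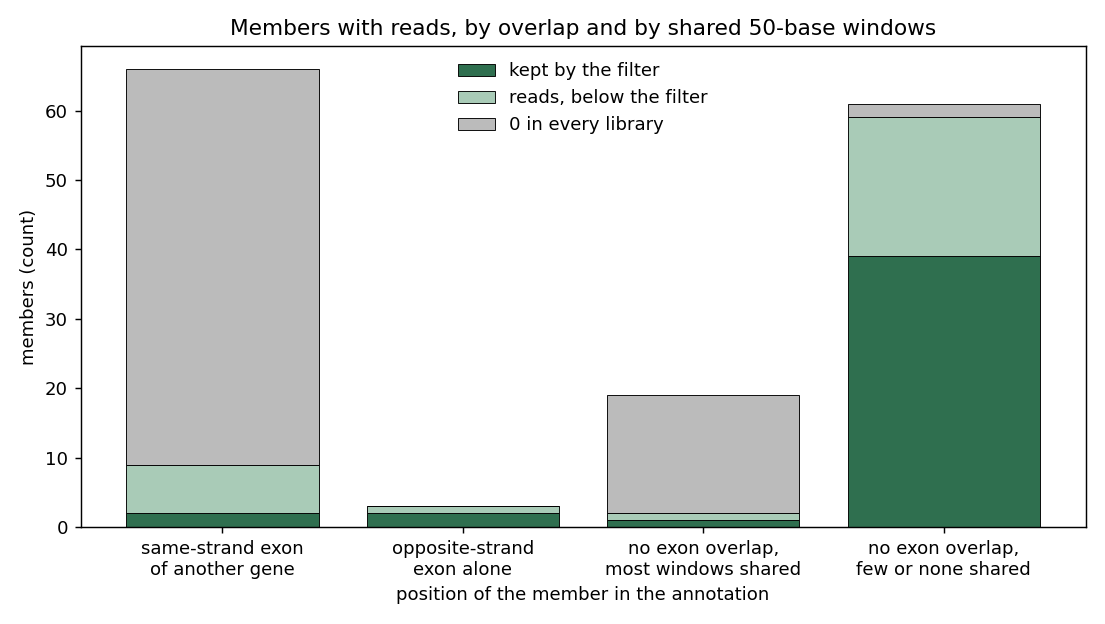
Number of members (y axis) by their place in the GENCODE M21 annotation (x axis), split into those kept by the filter on low values, those with reads below it and those at 0 in every library. Of the 66 members under a same-strand exon 57 were at 0, against 2 of the 61 with neither an overlap nor windows mostly shared with another place. Exons of other short RNA genes were not counted as overlap.

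These zeros covered several snoRNAs known for ribosomal RNA processing. Snord22 (U22), Snora74a and the copies Snord14a, Snord14c, Snord14d and Snord14e (U14) were at 0 in all 5 libraries, and each overlaps a same-strand exon in GENCODE M21. The gene that Snora74a overlaps, AC121821.1, is absent from the authors' data, unlike those of the others. Snora73a, a near copy of Snora73b, had at most 0.07 CPM. The imprinted Snord64 and Snord107 were also at 0. For these members the table gives no measurement of a genotype difference.

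Snord118, the U8 snoRNA, differed most between the genotypes. It stood at 4.82 and 3.09 CPM in WT replicates 1 and 2 and at 14.1, 15.3 and 13.8 CPM in KO replicates 1, 2 and 3. These levels came from 104 and 88 reads in WT and from 661, 489 and 294 reads in KO. All 3 KO libraries were high and close to each other, and they did not overlap the WT libraries. The mean was 3.96 ± 1.22 CPM (SD, n = 2) in WT and 14.4 ± 0.76 CPM (SD, n = 3) in KO, a ratio of 3.64. KO over WT gave a log2 fold change of 1.66 (standard error 0.20) on the log2(CPM + 1) scale. It had the third smallest p of the 14884 genes tested (unadjusted p = 8.623e-05, limma) and did not pass after adjustment over all of them (adjusted p = 0.3209, limma with Benjamini-Hochberg adjustment). Of all genes tested, 0.00672% passed that threshold, which is 1 gene, and it was no member. For Snord118 the authors' deposited table gives a log2 fold change of 1.87 with an FDR of 1.4e-05, and 0.0315% of its genes had an FDR under 0.05. It was the 1 member among those.

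The value of Snord118 was compared across the features in which the libraries differ. WT replicate 1 and KO replicate 3 had Xist at 0.93 and 0.52 CPM, and the other 3 libraries had it between 765 and 951 CPM. Among the libraries with low Xist, Snord118 was at 4.82 CPM in WT and 13.8 CPM in KO. Among those with high Xist WT had 3.09 CPM and KO 14.1 and 15.3 CPM. As the genotypes did not overlap, any such split leaves KO higher on both sides. The part of the Xist difference in the Snord118 values was not tested. Without each library in turn the log2 fold change stayed between 1.40 and 1.91, and limma's adjusted p between 0.121 and 0.9999. An exact permutation test of 2 against 3 libraries cannot give a two-sided p below 0.1.

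The neighbourhood and copies of Snord118 were examined because they could share its reads. Snord118 lies at chromosome 11, 69073427 to 69073561, plus strand (GRCm38), in no exon or intron of another gene on its strand. The ciliary protein gene Tmem107, upstream on the same strand, ends before it. Tmem107 stood at 3.39 and 4.25 CPM (WT) against 6.41, 6.27 and 3.72 CPM (KO), with 0.40 ± 0.25 (standard error) as its log2 fold change. Its KO libraries overlapped the WT libraries, unlike those of Snord118. Of the 86 windows of 50 bases in Snord118, 17.4% also occur in the unnamed model Gm24208, which stood between 0.11 and 0.41 CPM.

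Snord118 was also set against the other C/D members within each library, where the scaling cancels. It amounted to 4.09% and 3.09% of the summed CPM of the other 98 C/D members in WT and to 12.6%, 16.5% and 17.97% in KO. The mean sum of those others was lower in KO (ratio 0.86), which by itself raises the share in KO. That sum was 112, 92.6 and 77.0 CPM in KO replicates 1, 2 and 3, while Snord118 stood at 14.1, 15.3 and 13.8 CPM. The share was lowest in the 2 WT libraries. The next highest log2 fold change of any member was 0.59 and the lowest was -0.72, so Snord118 stood apart from the other 43 measured members. Only 8 of the 14884 genes tested had a log2 fold change as high as its own, itself included.

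**Figure D2:**
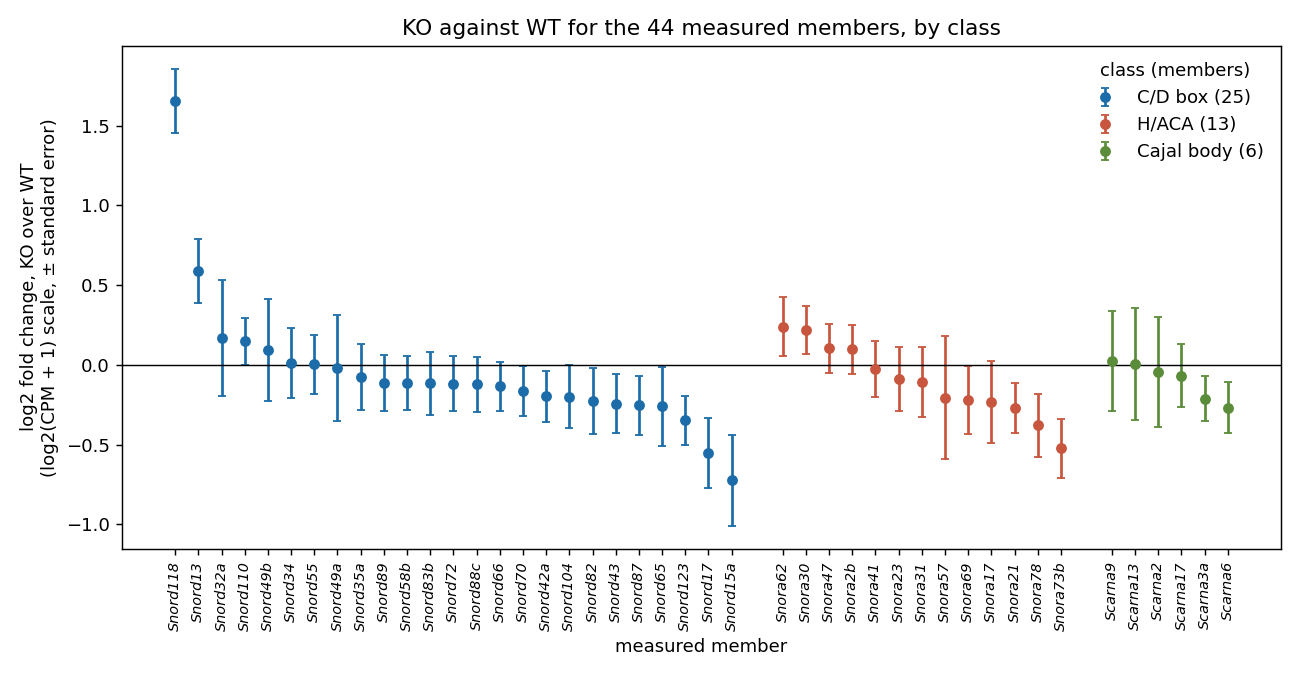
Log2 fold change of KO over WT on the log2(CPM + 1) scale (y axis) for each measured member (x axis), ordered within its class, with bars of 1 standard error from limma. Snord118 stands at 1.66, the other C/D members between -0.72 and 0.59, the H/ACA members between -0.52 and 0.24 and the Cajal body members between -0.27 and 0.03.

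Of the other C/D snoRNAs, Snord13 (U13) was the nearest to Snord118. Snord13, which acts with the acetyltransferase of the small subunit ribosomal RNA, stood at 5.47 and 5.58 CPM (WT) against 10.4, 9.36 and 7.01 CPM (KO). Its KO libraries lay above both WT libraries, with KO replicate 3 nearest to them. It had a log2 fold change of 0.59, standard error 0.20 (adjusted p = 1, limma). Like Snord118 it has no host gene on its strand in GENCODE M21.

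Snord15a and Snord17 were at the other end of the C/D class. Snord15a, a guide of ribosomal RNA methylation, stood at 12.9 and 10.9 CPM (WT) against 4.37, 9.01 and 7.76 CPM (KO). Snord17 stood at 36.5 and 23.9 CPM (WT) against 23.3, 19.2 and 17.4 CPM (KO), the last 3 below both WT libraries by a small margin for KO replicate 1. The log2 fold changes were -0.72 (standard error 0.28) and -0.55 (standard error 0.22), and neither passed (adjusted p = 1 for both, limma). Snord15a lies in an intron of the ribosomal protein gene Rps3, whose WT and KO means were 712 and 669 CPM (log2 fold change -0.10). Snord17 lies in an intron of Snx5, a sorting nexin gene whose WT and KO means were 96.8 and 82.5 CPM (log2 fold change -0.23).

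The remaining C/D members showed smaller differences. Snord123 stood at 1.67 and 1.55 CPM (WT) against 1.13, 0.90 and 1.13 CPM (KO), the last of the 3 C/D members with every KO library below both WT libraries, and its host Snhg18 had a log2 fold change of -0.28 against -0.35 for Snord123. Snord87, Snord43 and Snord42a had log2 fold changes of -0.25, -0.24 and -0.20, with genotypes that overlapped. Snord110, in an intron of the C/D core protein gene Nop56, stood at 0.56 and 0.53 CPM (WT) against 0.90, 0.59 and 0.66 CPM (KO), with KO replicate 1 the highest and KO replicate 2 closest to WT. Snord104 had means of 9.45 ± 0.54 CPM (WT, SD, n = 2) and 8.19 ± 1.55 CPM (KO, SD, n = 3).

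Some C/D members were high in KO replicate 1 alone. Snord32a stood at 4.68 and 5.06 CPM (WT) against 10.1, 4.59 and 3.62 CPM (KO). Snord49b stood at 6.35 and 8.11 CPM (WT) against 12, 7.27 and 5.17 CPM (KO). Snord34, which shares the host gene Rpl13a with Snord32a, stood at 1.92 CPM in KO replicate 1 and between 0.85 and 1.30 CPM elsewhere. In each of these the highest and the lowest library were both KO, so the genotypes overlapped. KO replicate 1 is also the library with the highest share of Rn7sk, and the part of that in these values was not tested.

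The C/D class as a whole leaned below 0, with members on both sides. Of its 25 measured members 7 were higher in KO and 18 lower, where 52.9% of all genes tested were higher and 47.1% lower, with a median log2 fold change of -0.12, where the median over all genes tested was 0.01. All 3 KO libraries lay above both WT libraries for 3 members (Snord118, Snord13 and Snord110), where 7.85% of all genes tested did so. They lay below for 3 members (Snord15a, Snord17 and Snord123), where 6.98% of all genes did. Summed over all 99 members, the class stood at 123 and 103 CPM (WT) against 126, 108 and 90.8 CPM (KO), a ratio of means of 0.96 with overlapping genotypes. Without Snord118 the sums were 118 and 100.1 CPM (WT) against 112, 92.6 and 77.0 CPM (KO), a ratio of 0.86.

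**Figure D3:**
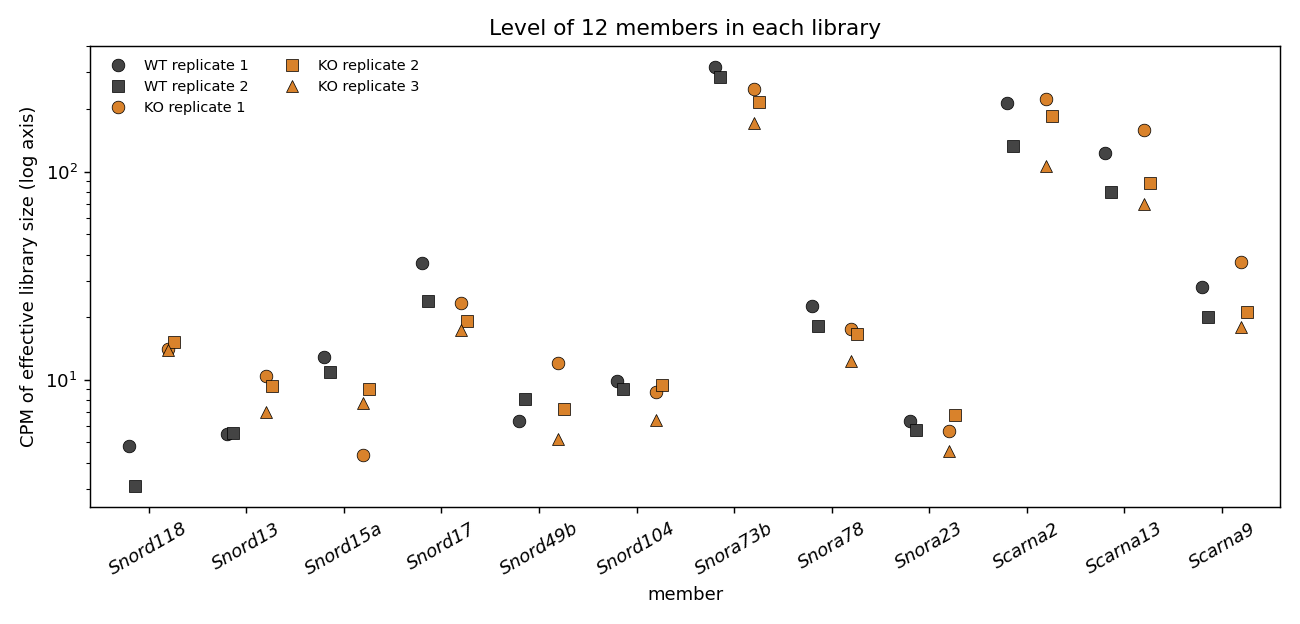
Level in CPM of the effective library size (log y axis) of 12 members (x axis) in each library, grey for WT and orange for KO, with a marker shape for each replicate number. The 3 KO points of Snord118 lie between 13.8 and 15.3 CPM, above both WT points, while Scarna2, Scarna13 and Scarna9 run from KO replicate 1 at the top to KO replicate 3 at the bottom.

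The H/ACA class was dominated by Snora73b, a U17 snoRNA that acts in cutting the ribosomal RNA precursor and took 84.8% of the summed level of its class. Snora73b stood at 318.9 and 286 CPM (WT) against 249, 216 and 172 CPM (KO). Every KO library was below both WT libraries, and KO replicate 3 was the lowest. The mean was 302 ± 23.4 CPM (SD, n = 2) in WT and 212 ± 38.9 CPM (SD, n = 3) in KO, and the log2 fold change was -0.52 ± 0.18 (standard error), which did not pass (adjusted p = 1, limma). Snora73b lies at chromosome 4, 132352322 to 132352526, minus strand, inside introns of Rcc1 and Snhg3. The WT and KO means were 23.1 and 23.4 CPM for Rcc1 and 22.04 and 21.9 CPM for Snhg3, so the host genes had log2 fold changes of 0.01 and -0.05. Of the windows of Snora73b, 7.1% also occur in Snora73a, and it overlaps an exon of Gm17300 on the opposite strand, which stood between 0.09 and 0.46 CPM.

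Other H/ACA members differed less. Snora78 stood at 22.6 and 18.1 CPM (WT) against 17.5, 16.6 and 12.4 CPM (KO), and Snora21 at 3.11 and 2.84 CPM (WT) against 2.37, 2.21 and 2.30 CPM (KO). These were the other 2 H/ACA members with every KO library below both WT libraries, with log2 fold changes of -0.38 and -0.27. That made 3 of the 13 measured members, where 6.98% of all genes tested lay below in this way. The host of Snora78, Snhg9, had a log2 fold change of -0.40, and the host of Snora21, the ribosomal protein gene Rpl23, one of 0.02. Snora30 was the 1 H/ACA member for which no KO library came down to WT, at 1.16 and 1.19 CPM (WT) against 1.51, 1.44 and 1.65 CPM (KO) (log2 fold change 0.22), where 7.85% of all genes tested lay above in this way. Snora62, Snora47 and Snora2b had log2 fold changes of 0.24, 0.10 and 0.10, and Snora69, Snora17, Snora57 and Snora23 of -0.22, -0.23, -0.20 and -0.09, all with overlapping genotypes.

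Over the class, 4 of the 13 measured members were higher in KO and 9 lower, with a median log2 fold change of -0.11. The sum over all 41 members was 372 and 330.4 CPM (WT) against 298, 259 and 206 CPM (KO). The genotypes did not overlap in this sum, and the ratio of means was 0.72. Without Snora73b the other 40 members summed to 53.0 and 44.6 CPM (WT) against 48.3, 43.3 and 33.9 CPM (KO), which overlapped, with a ratio of 0.86.

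The Cajal body RNAs varied between libraries more than between genotypes. Scarna2, which guides methylation of the U2 small nuclear RNA, stood at 214 and 133 CPM (WT) against 224, 186 and 106 CPM (KO). Scarna13, an H/ACA type guide, stood at 123 and 79.9 CPM (WT) against 158, 88.7 and 70.1 CPM (KO). Scarna9, another guide for U2, stood at 28.0 and 20.1 CPM (WT) against 37.0, 21.1 and 17.96 CPM (KO). All 3 ran from KO replicate 1, the highest, through WT replicate 1 to KO replicate 3, the lowest. The progenitor genes Cited1 and Sall1 were also highest in KO replicate 1 and then WT replicate 1, and their part in these values was not tested. Their log2 fold changes were -0.04, 0.00 and 0.03, with standard errors of 0.34, 0.35 and 0.31. Differences of this size would be hidden by the spread between libraries, so these values do not show that the levels are equal.

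For Scarna6 and Scarna3a, 2 of the 6 measured members, the KO libraries were all lower than both of WT, where 6.98% of all genes tested were. For 0 of the 6 were they all higher. Scarna6 stood at 19.7 and 16.3 CPM (WT) against 13.7, 15.9 and 14.5 CPM (KO) (log2 fold change -0.27). Scarna3a stood at 1.02 and 0.88 CPM (WT) against 0.77, 0.62 and 0.66 CPM (KO) (log2 fold change -0.21). Scarna17 had a WT mean of 3.38 CPM and a KO mean of 3.21 CPM, and 70.0% of its windows also occur in another model, so its value is uncertain. The class sums were 389.6 and 254 CPM (WT) against 436, 316 and 212 CPM (KO), a ratio of means of 0.999, and the 3 leading members made up 93.7% of them.

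**Figure D4:**
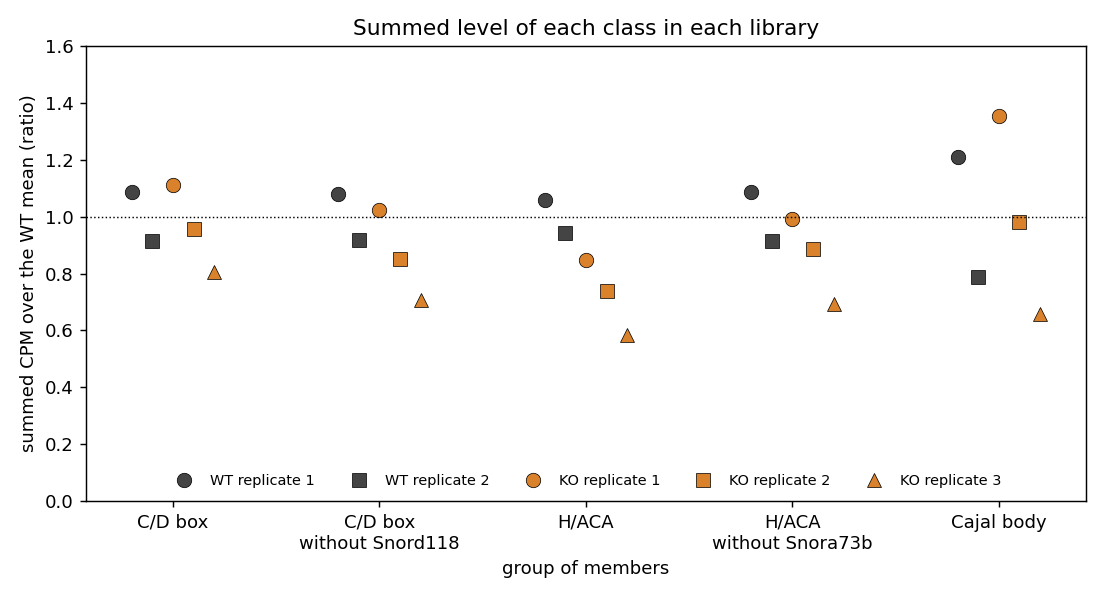
Summed CPM of each class in each library, divided by the mean of the WT libraries (y axis, ratio), with the C/D class also without Snord118 and the H/ACA class also without Snora73b (x axis). The KO points of the H/ACA sum lie below both WT points, a ratio of means of 0.72, and those of the other groups overlap the WT points.

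Snora73b, Scarna2, Scarna13 and Scarna9 led in this order both per gene and per length, and the order after them was different. Per kb of gene, Snora73b had a mean level of 1211 CPM over the 5 libraries, Scarna2 417, Scarna13 378 and Scarna9 354. Snora78 followed with 136, Snord104 with 124, Snord49b with 108 and Snord17 with 101, while Snord118 and Snord13 had 75.7 and 72.7 CPM per kb. Longer members had higher levels per gene (Spearman's rho 0.38 and Pearson's r 0.68 between length and mean log2(CPM + 1), across 44 members that share their libraries). The measured members had median lengths of 81 bases in the C/D class, 137 in the H/ACA class and 202.5 in the Cajal body class. The log2 fold change had little relation to length across the same members (rho -0.12, r -0.08).

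Across the 3 classes, 0 of the 44 measured members passed over all genes with limma. At an unadjusted p under 0.05 there were 2 higher (Snord118 and Snord13) and 3 lower (Snord15a, Snord17 and Snora73b), where 1.5% of all genes tested were higher and 1.27% lower at that level. Snord118 was the 1 member of these 5 that kept such a p without each library in turn. Without WT replicate 1 it was the only one left, without WT replicate 2 or KO replicate 2 there was 1 more, and without KO replicate 1 or KO replicate 3 Snora73b was among those left. In all, 31 members (70.5%) were lower in KO, where 47.1% of all genes tested were. That lean rested in part on KO replicate 3, the lowest library for 25 of the 44 members: without it 23 of 43 were lower. Without KO replicate 1 there were 35 of 42 lower, and without KO replicate 2 there were 29 of 43. Leaving out WT replicate 1 gave 28 of 43, and leaving out WT replicate 2 gave 31 of 41. WT replicate 1 was the highest library for 17 members and KO replicate 1 for 16.

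The class medians showed the same order of libraries. Relative to the WT mean, the median member of the C/D class stood at 0.05, -0.11 and -0.29 (log2) in KO replicates 1, 2 and 3, that of the H/ACA class at 0.09, 0.01 and -0.26, and that of the Cajal body class at 0.14, -0.16 and -0.33. The WT libraries themselves lay 0.05, 0.07 and 0.18 on either side of their mean. Differences between the 3 classes were smaller than those between the KO libraries; a difference between classes was not tested.

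Host genes gave a further comparison, since most members lie in the introns of another gene. Of the 44 measured members, 37 had a measured host gene on the same strand, 32 hosts in all. Host log2 fold changes ran from -0.40 (Snhg9) to 0.71 (Eif4g1), with a median of -0.04. Across the 37 members, Pearson's r between member and host was 0.19 and Spearman's rho 0.21, with members of 1 host sharing its value. Snord66, in Eif4g1, had a log2 fold change of -0.14. It overlaps an exon of Eif4g1 on the same strand in GENCODE M21, so it is not a purely intronic member. Snord49a, Snord49b and Snord65 share the host 2410006H16Rik, whose log2 fold change was 0.52 (standard error 0.55), against -0.02, 0.09 and -0.26 for the members.

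The 7 measured members without a host gene on their strand were Snord118, Snord13, Snord104, Snora57, Snora17, Scarna2 and Scarna17. Their median log2 fold change was -0.07, with Snord118 and Snord13 above 0 and the other 5 below. Scarna2 and Scarna17, which are also known to be made from promoters of their own, had log2 fold changes of -0.04 and -0.07. Snord104, Snora57 and Snora17 had -0.20, -0.20 and -0.23. The group thus held the members with the highest values and others below 0.

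The proteins of these particles were compared through a list of 47 genes for snoRNA particle proteins, assembly, capping and trimming, of which 45 were in the table and measured. With limma 0 of the 45 passed over all genes and 2 had an unadjusted p under 0.05, where 2.77% of all genes did. There were 30 higher and 15 lower, where 52.9% of all genes tested were higher and 47.1% lower. The median log2 fold change was 0.09, where that over all genes tested was 0.01. All KO libraries lay above both WT libraries for 3 of the 45 and below for 3, where 7.85% and 6.98% of all genes tested did. Of the C/D core, Fbl (the methyltransferase), Nop56, Nop58 and Snu13 had log2 fold changes of 0.16, -0.09, -0.02 and 0.14. Of the H/ACA core, Dkc1 (the pseudouridine synthase), Nhp2, Nop10 and Gar1 had -0.27, 0.21, 0.03 and 0.10. Genotypes overlapped in all 8.

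The 4 genes of that list with the smallest p were lower in KO. Utp14a, a factor of the small subunit processing complex, stood at 26.3 and 25.3 CPM (WT) against 17.9, 19.7 and 20.3 CPM (KO). Naf1, an H/ACA assembly factor, stood at 7.33 and 7.30 CPM (WT) against 5.35, 4.46 and 5.31 CPM (KO). Their log2 fold changes were -0.40 and -0.47, and neither passed (adjusted p = 1 for both, limma). Nufip1, a C/D assembly factor, had a log2 fold change of -0.27, as did Dkc1. Nudt16, which removes the cap of U8, had a WT mean of 3.06 CPM and a KO mean of 3.56 CPM (log2 fold change 0.16).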

How the data were processed

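Total RNA from 2 WT and 3 KO libraries went into libraries with a stranded total RNA kit, sequenced as single reads of 50 bases, per the labels' protocols. HISAT2 2.1.0, featureCounts, edgeR 3.20.1 and build mm10 are named in the submitters' processing notes. The annotation release, strand setting, treatment of overlaps and of repeated matches, and kind of normalization were not given in the sources used here. Per the deposited file's values, each library's signal is a CPM with an effective library size as denominator, kept to 2 decimals. The deposited table also holds the authors' p-value, FDR, likelihood ratio (a score), log2 fold change and log2 CPM, quoted here only as theirs.

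Depth came from the steps of 1 read in low values: in every library 100.0% of values below 100 CPM came within 0.0055 CPM of whole reads. The step was searched for so as to make this share largest. A step fixed beforehand would reach 23.4% to 51.6% by chance, and that range does not allow for the search. Single reads can be told apart, but rounding moves values by 0.11 to 0.23 of a read, more than the 0.1 allowed for recovering counts, so no count model was run and the limma fit that the design gives for normalized values was used. The 14884 genes that reached 0.5 CPM in 2 or more libraries were tested two-sided for genotype on log2(CPM + 1) with the trend method of limma 3.58.1 (R 4.3.3), with Benjamini-Hochberg adjustment over all of them and a threshold of 0.05. Fold changes on that scale understate those of low genes. The fit was also run on simulated data whose spread between libraries was set beforehand, which does not show how it behaves in these data.

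All 149 members matched GENCODE M21 (GRCm38) by versioned identifier, which gave coordinates, hosts and sequences. Sequences are printed for 5 members. A host is the gene with the highest level that contains the member on the same strand. Members, lists and rules were chosen with earlier results of these data known. Named were Snord118, snoRNAs of ribosomal RNA processing, the imprinted families, and in each class up to 6 members per direction with the smallest p, the 5 most abundant, and those with the lowest and highest log2 fold change. Of the protein list, the core and the 4 with the smallest p were named. Other pseudocounts, filters, size factors, a replicate term and leaving out each library were tried.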

Additional observations from a re-analysis of the deposited data

How the results depend on the processing

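Snord118 had a positive log2 fold change and the first rank among the members under every alternative run, between 1.12 with a pseudocount of 5 and 1.91. With a replicate block, the number in the titles as a term, it was 1.68 and passed (adjusted p = 0.0278, limma). It was the 1 of 44 measured members to pass, where 390 of the 14884 genes tested did. These shares are close. Replicate 3 has no WT library, so the block takes KO replicate 3 out of the genotype estimate. The log2 fold change of Snord118 is the same as without that library. The block changed no other member's adjusted call. At an unadjusted p under 0.05 it had 8 members instead of 5, adding Scarna13, Snora69 and Snord123. Genes past the adjusted threshold rose from 1 to 390 as well. The share of all genes at the unadjusted level was not worked out for the block, so this rise is no result about the members. Same-numbered WT and KO libraries deviated together (correlations of 0.41 and 0.54 across genes), but there are only 2 such pairs and no label says what the numbers share. Genes past the threshold numbered 0 with a pseudocount of 5, with no filter or with median-of-ratios size factors, and ran from 0 to 8 without each library in turn. No member passed under the alternatives without the block. The ratio of summed H/ACA levels was 0.86 without Snora73b, a change by construction, as Snora73b takes most of the sum. With those size factors 33 of 44 members were lower, with the block 24. The C/D median stayed below 0 throughout, between -0.21 and -0.045. The H/ACA and Cajal body medians stood above 0 without KO replicate 3, and so with the block that takes it out (0.04 and 0.13 in both), and the latter also without WT replicate 1 (0.065). Depth limits the members under the filter, which have too few reads for a comparison.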

Other observations

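GENCODE M21 annotates 1410 further snoRNA or Cajal body RNA models in the table under other names, of which 58 passed the filter. Of these, 49 were lower in KO (84.5%), where 47.1% of all genes tested were, with a median log2 fold change of -0.15. For 13 of them all KO libraries were under both WT libraries, and for 0 were all above, where 6.98% and 7.85% of all genes tested were. With limma 0 passed, and 4 were lower at an unadjusted p under 0.05, where 1.27% of all genes tested were. The models named here were picked with their values in view. Gm23442 stood at 26.2 and 22.8 CPM (WT) against 9.87, 19.2 and 16.8 CPM (KO), and Gm22154 at 22.9 and 16.9 CPM (WT) against 8.52, 13.9 and 14.9 CPM (KO). Both were lowest in KO replicate 1, as Snord15a was. The most abundant model, Gm22009, had means of 529 ± 96.1 CPM (WT, SD, n = 2) and 456 ± 99.2 CPM (KO, SD, n = 3), and its genotypes overlapped. The highest log2 fold change among the 58 was 0.67, in Gm23969, which stood at 0.51 and 0.60 CPM (WT) against 3.50, 1.37 and 0.42 CPM (KO).

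Among short RNAs that are no snoRNAs, the vault RNA Vaultrc5 and the Y RNA Rny1 had higher log2 fold changes than Snord118, 3.985 ± 0.29 and 3.39 ± 0.37 (standard error). Vaultrc5 was the 1 gene past the threshold (adjusted p = 0.04714, limma). A second Y RNA, Rny3, was below Snord118 at 1.07 ± 0.26. All KO libraries lay above both WT libraries for each of the 3, where 7.85% of all genes tested did so. The telomerase RNA Terc, which carries an H/ACA domain, stood between 0.37 and 0.47 CPM in all 5 libraries and did not reach the filter.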
